A study of Gallus gallus with 8 samples.

Results

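Knockout of SF3B1 was compared with knockout of DLC1 in green fluorescent (GFP+) cells sorted from the trunk neural crest of chicken (Gallus gallus). The comparison used 4 of the 8 libraries of the series, 2 for SF3B1 knockout and 2 for DLC1 knockout, chosen by their labels. The other 4 libraries were 2 of PHF5A knockout and 2 that received a scrambled guide RNA, and they entered only alternative fits. All were labelled as primary trunk neural crest cells treated by CRISPR-Cas9. Each knockout was made with 2 guides, and each guide gave 1 library, so guide and library differences could not be told apart. Separate cultures or embryos are not named by the labels. A gene's p-value here reflects the spread of these 4 libraries, in large part pooled over genes, and that spread may be technical. The labels do not name the editing efficiency, the age of the embryos or the fluorescent construct.

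Neural crest cells leave the dorsal neural tube of the embryo and form the neurons and glia of the peripheral nervous system as well as pigment cells. SF3B1 encodes the largest subunit of the SF3b complex, through which the U2 particle of the spliceosome binds the branch point of introns, and PHF5A encodes another SF3b subunit. DLC1 encodes a protein best known for its part in the actin cytoskeleton and cell movement. The comparison therefore sets the targeting of a core splicing factor beside the targeting of a protein best known outside splicing.

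The deposited count table identifies features by Ensembl gene ID, chromosome, start, end and strand, and pairs no ID with a gene name. The level of each targeted gene and of neural crest, neuronal, glial, pigment and splicing genes was therefore not analysed here. Features are described by their genomic span (the distance from start to end, introns included), their chromosome and their level. The deposited length of each feature is this whole span, so a level may include reads of the gene's own introns. Coordinates are on GRCg6a.

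Outside the mitochondrial, Z and W chromosomes, the SF3B1 libraries held 17212759 and 14749843 counts for guides 1 and 2, and the DLC1 libraries held 30097001 and 28331121. Depth thus followed the groups. The share of all counts on the W chromosome also did, at 0.235% and 0.159% in SF3B1 knockout and 0.106% and 0.116% in DLC1 knockout. Mitochondrial counts overlapped between the groups, at 9.44% and 18.0% in SF3B1 knockout and 9.65% and 15.7% in DLC1 knockout. The part of the W share in the results was not tested. Of 30862 features, 29009 lay outside the 3 chromosomes left out, and 14427 passed the filter on low counts and were tested.

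Compared with DLC1 knockout, SF3B1 knockout had lower levels of genes with very long genomic spans and higher levels of many genes with short ones. The median log2 fold change (SF3B1 over DLC1 knockout) was -0.66 for 219 tested genes spanning over 300 kb and 0.30 for 123 tested genes of up to 1 kb. It was 0.00 for all 14427 genes. The 123 short genes had a median level of 2.62 CPM, against 22.7 CPM for all tested genes. At 1 to 3 kb and 3 to 10 kb the library medians of the groups overlapped. Of the genes over 300 kb, 78 were lower and 2 were higher in SF3B1 knockout (edgeR quasi-likelihood test, Benjamini-Hochberg adjusted p under 0.05). The same rule called 13.0% of all tested genes, with 7.27% of tested genes higher and 5.70% lower in SF3B1 knockout. Over 300 kb the scrambled controls stood near SF3B1 knockout, with median log2 levels of -0.76 and -0.58 relative to the DLC1 libraries. The PHF5A libraries stood nearer to DLC1 knockout, at -0.16 and -0.17. The fold change alone thus does not tell a lower level in SF3B1 knockout from a higher one in DLC1 knockout. Depth divided the libraries in the same way, with SF3B1 and controls shallow and PHF5A and DLC1 deep. The part of depth in this placement was not tested.

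In numbers, 1871 genes were called, 1049 higher and 822 lower in SF3B1 knockout. By at least 2-fold, 637 of these were higher (4.42% of tested genes) and 341 lower (2.36%). The called genes had a median log2 fold change of 1.14 among the higher and -0.89 among the lower. The median span was 9.75 kb for the higher genes, 28.4 kb for the lower and 15.5 kb for all tested genes. Among the higher genes, 51.2% spanned up to 10 kb and 2.19% over 100 kb. Among the lower genes, 28.6% spanned up to 10 kb and 26.6% over 100 kb, against 37.7% and 9.13% of all tested genes.

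The number of calls depended on single libraries and on which libraries gave the estimate of spread. It was 918 without the guide 2 library of SF3B1, 2833 without the guide 1 library of DLC1, 964 without the guide 2 library of DLC1, 887 with all 8 libraries in the fit and 619 with the 6 knockout libraries. When libraries were scaled by size alone, 67.2% of calls were higher in SF3B1 knockout, against 56.1% with TMM scaling.

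The counts followed span, though not in strict order among the short classes. For genes of 100 to 300 kb, 21 were higher (1.91%) and 141 lower (12.8%) of 1098, with a median log2 fold change of -0.25. For genes of 30 to 100 kb, 134 were higher (4.18%) and 179 lower (5.58%) of 3209, with a median of -0.05. For genes of 10 to 30 kb, 355 were higher (7.94%) and 189 lower (4.23%) of 4469, with a median of 0.02. For genes of 3 to 10 kb, 412 were higher (10.2%) and 161 lower (3.98%) of 4041, with a median of 0.09. For genes of 1 to 3 kb, 102 were higher (8.04%) and 70 lower (5.52%) of 1268, with a median of 0.04. For genes of up to 1 kb, 23 were higher (18.7%) and 4 lower (3.25%) of 123. The share called lower thus ran from 3.25% at up to 1 kb to 35.6% over 300 kb, against 5.70% of all genes. It was below 5.70% in each class of up to 100 kb, but only slightly at 1 to 3 kb and 30 to 100 kb. The share called higher was near the 7.27% of all genes at 1 to 3 kb and 10 to 30 kb. Among genes of up to 10 kb, 537 were higher (9.89%) and 235 lower (4.33%) of 5432. The higher count was 255 without the guide 2 library of SF3B1 and 290 without the guide 2 library of DLC1. The lower count was 117 without the guide 1 library of SF3B1, 153 without its guide 2 library, 411 without the guide 1 library of DLC1 and 121 without its guide 2 library.

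**Figure D1:**
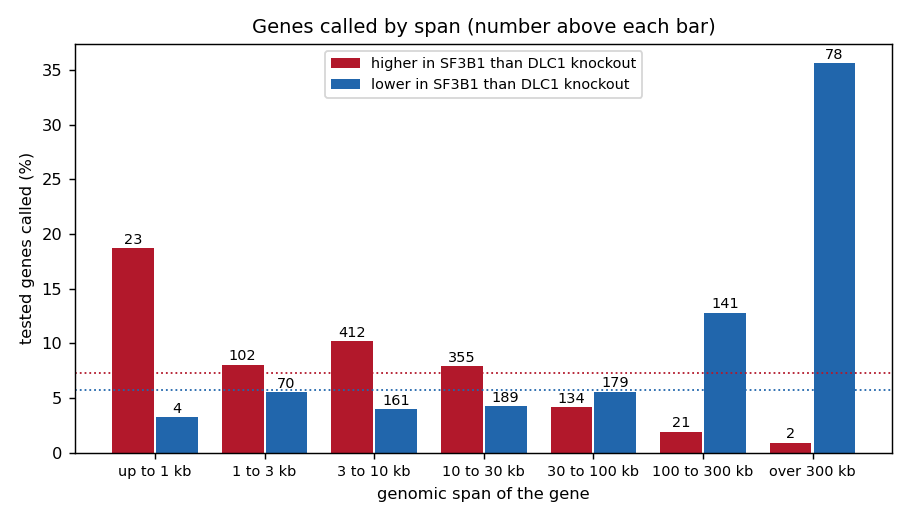
Percent of tested genes called higher (red) or lower (blue) in SF3B1 than in DLC1 knockout, by genomic span, with the number of genes above each bar and the percent over all tested genes as dotted lines (7.27% and 5.70%). The blue bar rises from 141 of 1098 genes at 100 to 300 kb to 78 of 219 genes over 300 kb.

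Genes over 300 kb were described library by library, as the median log2 CPM (counts adjusted for library size) relative to the mean of both DLC1 libraries. The medians were -0.56 and -0.75 in SF3B1 guides 1 and 2, and -0.04 and 0.04 in DLC1 guides 1 and 2. Both SF3B1 libraries thus lay below both DLC1 libraries. The group means were -0.66 ± 0.13 in SF3B1 knockout and 0.00 ± 0.05 in DLC1 knockout (SD, n = 2 each). A two-sided exact permutation test over the 4 libraries gave p = 0.333, which is the smallest that 2 libraries against 2 allow (0.667 after Benjamini-Hochberg adjustment over 8 measures of span). Each single pairing of an SF3B1 with a DLC1 library gave a median between -0.78 and -0.52, while guide 1 minus guide 2 gave 0.21 within SF3B1 knockout and -0.07 within DLC1 knockout.

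The other span classes separated the groups less clearly. At 100 to 300 kb the library medians were -0.14 and -0.35 in SF3B1 knockout and 0.05 and -0.05 in DLC1 knockout, without overlap. At up to 1 kb they were 0.19 and 0.41 in SF3B1 knockout and -0.02 and 0.02 in DLC1 knockout, again without overlap. At 30 to 100 kb they were 0.03 and -0.13 in SF3B1 knockout and 0.06 and -0.06 in DLC1 knockout, and the groups overlapped. They also overlapped at 1 to 3 kb, 3 to 10 kb and 10 to 30 kb. The span difference, which is the median at 30 to 100 kb minus that at up to 3 kb, was 0.08 and -0.32 in the SF3B1 libraries and 0.13 and -0.13 in the DLC1 libraries. Its value in the fit was -0.11, within the spread of the libraries, and it was 0.08 without the guide 2 library of SF3B1 (exact permutation test, two-sided, p = 0.667).

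**Figure D2:**
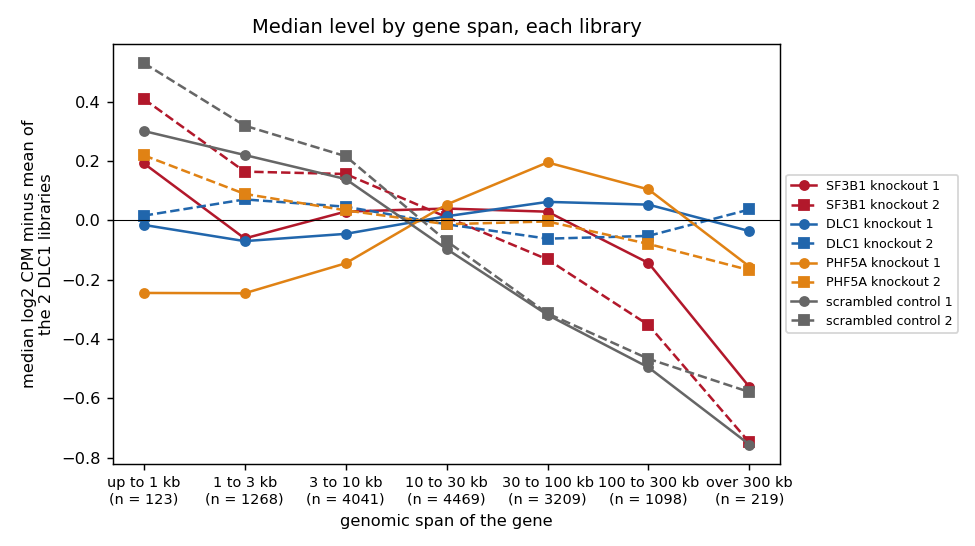
Median log2 CPM of tested genes in each library minus the mean of both DLC1 libraries (vertical axis), by genomic span (horizontal axis); circles with solid lines are the first library of a group and squares with dashed lines the second. Over 300 kb the SF3B1 libraries stand at -0.56 and -0.75, near both scrambled controls, while the DLC1 libraries stand near 0.

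The lower level of the longest genes was broad rather than carried by a few features. Of the 219 genes, 192 had a negative log2 fold change, against 50% of all tested genes. In 160 both SF3B1 libraries lay below both DLC1 libraries and in 12 both lay above, against 30.3% and 30.5% of all tested genes (60.8% in either direction). The quartiles of the log2 fold change were -1.03 and -0.33, and the extremes -3.66 and 1.27. Of the 78 lower genes, 51 were lower by at least 2-fold, and the 78 lay on 15 chromosomes. The median was -0.64 for 119 genes of 300 to 400 kb (41 lower, 1 higher), -0.59 for 71 genes of 400 to 600 kb (21 lower, 1 higher) and -0.95 for 29 genes over 600 kb (16 lower, 0 higher). Of the 254 features over 300 kb outside the 3 chromosomes left out, 35 did not pass the filter on low counts. The lower count was 40 without the guide 2 library of SF3B1, and it was 49 with the 6 knockout libraries in the fit.

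**Figure D3:**
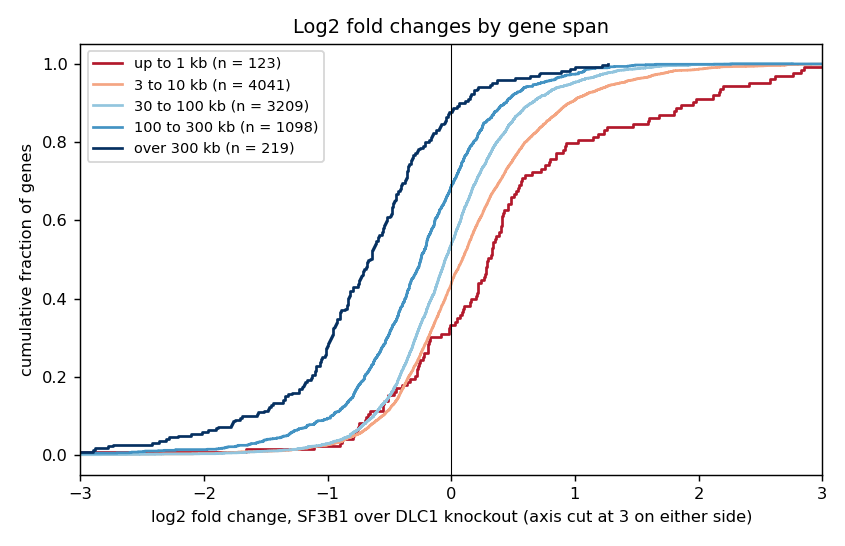
Cumulative fraction of genes (vertical axis) against the log2 fold change of SF3B1 over DLC1 knockout (horizontal axis), for 5 classes of genomic span. The curve of the 219 genes over 300 kb lies to the left of the others through its whole middle range, with a median of -0.66, and that of the 123 genes of up to 1 kb lies to the right, with a median of 0.30.

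The same direction was seen at every level of expression. When tested genes were divided into 4 bins of equal size by mean level over the 4 libraries, the median log2 fold change of genes over 300 kb was -0.85 in the lowest bin (15 lower and 0 higher of 66) and -0.68 in the second (32 lower and 2 higher of 80). The median was -0.52 in the third bin (18 lower and 0 higher of 45) and -0.58 in the highest (13 lower and 0 higher of 28). All genes together had medians of 0.16, 0.04, 0.01 and -0.11 from the lowest to the highest bin. In the highest bin 145 genes were higher (4.02%) and 319 lower (8.84%) of 3607. In the lowest 260 were higher (7.21%) and 126 lower (3.49%) of 3607, against 7.27% and 5.70% of all tested genes. Genes of 3 to 10 kb had a median of 0.29 in the lowest bin and -0.05 in the highest. Their median was thus not above 0 among the most highly expressed genes, though it lay above the -0.11 of all genes there. In that bin 43 of them were higher (4.38%) and 64 lower (6.52%) of 981, against 4.02% and 8.84% of all its genes. Of the 123 genes of up to 1 kb, 72 were in the lowest bin, with a median of 0.42. The median was 0.21 for 31 in the second bin, 0.25 for 14 in the third and -0.35 for 6 in the highest.

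Read depth and overlapping features were also examined for the longest genes. With every library thinned to the counts of the shallowest one, 78 of 210 genes over 300 kb were lower and 2 higher, with a median log2 fold change of -0.63. Whole-span counts of long features can take in reads of their own introns and of features nested in those introns. The part of reads from a gene's own introns was not tested. The 122 genes over 300 kb that overlapped no other feature had a median of -0.65, with 46 lower and 0 higher, and the 97 that overlapped another had a median of -0.68, with 32 lower and 2 higher. Both higher genes, named here after their values were seen, lay on chromosome 31 at 299899 to 662201 (plus strand) and 1163142 to 1659141 (minus strand). They overlapped 17 and 37 other features. Their log2 fold changes were 1.22 and 1.27, and reads of the features within them could not be told apart.

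Genes over 300 kb took a small part of all reads outside the 3 chromosomes left out. Shares were taken over all features of a class, tested or not. They held 0.553% and 0.444% of these counts in the SF3B1 libraries and 0.696% and 0.656% in the DLC1 libraries. Genes of 100 to 300 kb held 4.71% and 3.92% in SF3B1 knockout and 5.26% and 4.74% in DLC1 knockout. The SF3B1 libraries were below the DLC1 libraries in both classes. Genes of 1 to 3 kb held 7.59% and 9.30% in SF3B1 knockout and 7.30% and 7.75% in DLC1 knockout, and there the groups overlapped. The 1754 features of up to 1 kb held 0.198% and 0.268% in SF3B1 knockout and 0.205% and 0.213% in DLC1 knockout. The guide 1 library of SF3B1 was lowest, so this share did not separate the groups. The median level, which did, was that of the 123 tested features only.

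The libraries outside the comparison were placed on the same scale. For genes over 300 kb the median relative to DLC1 knockout was -0.16 and -0.17 in the PHF5A libraries and -0.76 and -0.58 in the scrambled controls, next to the -0.56 and -0.75 of SF3B1 knockout. In this class the SF3B1 libraries thus overlapped the controls, with the DLC1 libraries highest and the PHF5A libraries between them. Among the 78 genes called lower in SF3B1 knockout, the mean of the controls was nearer to the SF3B1 than to the DLC1 level in 62, and the mean of PHF5A knockout was nearer to the DLC1 level in 67. Over all tested genes the controls were nearer to SF3B1 in 50% and PHF5A in 46.2%. The next classes differed. At 100 to 300 kb the controls, at -0.50 and -0.47, lay below both SF3B1 libraries, at -0.14 and -0.35. The PHF5A libraries there, at 0.10 and -0.08, took in both DLC1 libraries. At 30 to 100 kb the controls, at -0.32 and -0.31, lay below every knockout library. For genes of up to 1 kb the medians were 0.19 and 0.41 in SF3B1 knockout, -0.25 and 0.22 in PHF5A knockout and 0.30 and 0.53 in the controls, so the PHF5A libraries took in both sides.

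The same placement was made for all called genes. Among the 822 genes lower in SF3B1 knockout, controls were nearer to SF3B1 in 569 (69.2%), and PHF5A was nearer to SF3B1 in 197 (24.0%). Among the 1049 higher genes, controls were nearer to SF3B1 in 375 (35.7%), and PHF5A was nearer to SF3B1 in 555 (52.9%). In 553 of the higher and 580 of the lower genes the mean of the controls lay between both knockouts. PHF5A lay between them in 913 of the higher and 689 of the lower genes. Over all tested genes the controls lay between in 27.5% and PHF5A in 46.5%, and genes called for a wide gap between the knockouts leave more room between them. PHF5A and DLC1 libraries were deep and SF3B1 and control libraries shallow, and the part of depth in these placements was not tested.

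Small chromosomes, which in chicken carry many short genes, held a larger part of the genes that were higher in SF3B1 knockout. On chromosomes 11 to 33, 553 genes were higher (10.3%) and 239 lower (4.45%) of 5375, with a median log2 fold change of 0.08. On chromosomes 1 to 10, 475 were higher (5.31%) and 575 lower (6.43%) of 8949, with a median of -0.05. The shares over all tested genes were 7.27% higher and 5.70% lower. The lowest medians were those of chromosomes 2 (-0.11), 3 (-0.07) and 1 (-0.07). Chromosome 2 had 55 genes higher (3.96%) and 113 lower (8.14%) of 1389. Chromosome 3 had 49 higher (4.18%) and 77 lower (6.58%) of 1171. Chromosome 1 had 89 higher (4.5%) and 135 lower (6.82%) of 1979. The median span of tested genes on these 3 chromosomes was 22.3 to 25.2 kb. Among small chromosomes with at least 100 tested genes, chromosome 25 had the highest median, at 0.15, with a median span of 6.33 kb. It had 27 genes higher (14.2%) and 9 lower (4.74%) of 190. Chromosome 21 followed with 0.15, with 25 higher (11.1%) and 7 lower (3.1%) of 226. Chromosomes 23 and 27 had medians of 0.12 each. Chromosome 23 had 39 higher (15.7%) and 10 lower (4.02%) of 249. Chromosome 27 had 26 higher (10.1%) and 6 lower (2.33%) of 258. Chromosome 31, with 43 tested genes, stood at 0.29. The only small chromosomes with a median below 0 were chromosome 32, at -0.03, and chromosome 11, at -0.00084. Chromosome 32 had 3 higher (5.08%) and 1 lower (1.69%) of 59. Chromosome 11 had 24 higher (6.86%) and 22 lower (6.29%) of 350, near the shares over all tested genes.

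**Figure D4:**
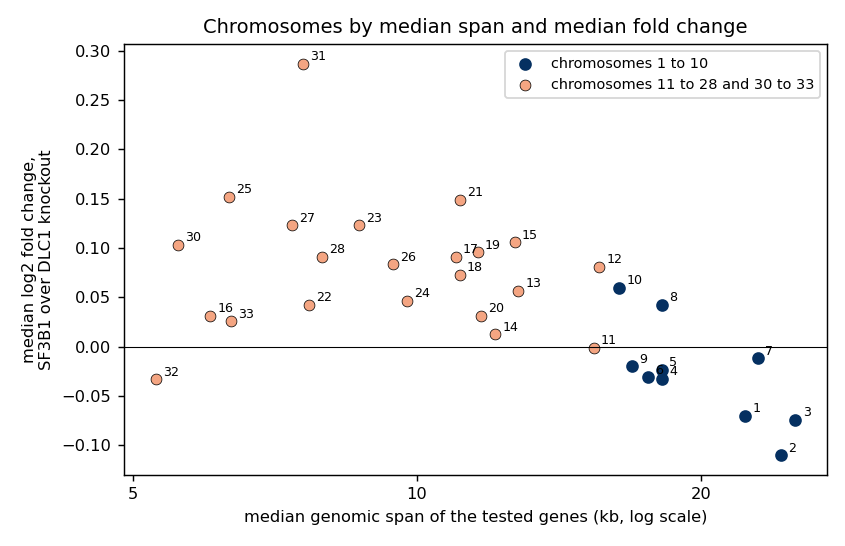
Each point is a chromosome, placed by the median genomic span of its tested genes (horizontal axis, log scale, kb) and their median log2 fold change of SF3B1 over DLC1 knockout (vertical axis). Chromosomes 1, 2 and 3 lie lowest at spans of 22.3 to 25.2 kb, and most of chromosomes 11 to 33 lie above 0.

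Within a class of span, the small chromosomes still had the higher median in most classes. At 3 to 10 kb the median was 0.12 on chromosomes 11 to 33, with 240 higher (11.9%) and 76 lower (3.75%) of 2025. It was 0.05 on chromosomes 1 to 10, with 166 higher (8.41%) and 82 lower (4.16%) of 1973. At 100 to 300 kb it was -0.07 on chromosomes 11 to 33 and -0.28 on chromosomes 1 to 10. Over 300 kb it was -0.46 for 32 genes on chromosomes 11 to 33 (2 higher and 7 lower) and -0.72 for 187 genes on chromosomes 1 to 10 (0 higher and 71 lower). At up to 1 kb the order turned, with 0.21 on chromosomes 11 to 33 and 0.33 on chromosomes 1 to 10. Span within each class was not matched, and these contrasts were not tested. Position along the chromosome moved with the same quantities. Within 1 Mb of a chromosome end the median was 0.12, with 225 higher (12%) and 81 lower (4.31%) of 1879. Over 5 Mb from an end it was -0.06, with 399 higher (4.94%) and 534 lower (6.61%) of 8083. All tested genes had 7.27% higher and 5.70% lower.

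Unplaced scaffolds had the highest median of the groups by position, at 0.33. Of their 103 genes 21 were higher (20.4%) and 8 lower (7.77%), against 7.27% and 5.70% of all tested genes. Their library medians were 0.28 and 0.41 in SF3B1 knockout and -0.08 and 0.08 in DLC1 knockout, without overlap. Their median span was 5.36 kb and their median level 5.34 CPM, against 15.5 kb and 22.7 CPM for all tested genes. The part of span and level in this median was not tested.

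In windows of 1 Mb with at least 10 tested genes, of which there were 586, calls were most dense in a few places. These were picked for their share of calls, so the values are a description. Over all tested genes, 7.27% were higher and 5.70% lower. The first megabase of chromosome 23 (1 to 1000000) had 9 of 30 genes higher, with log2 fold changes of 0.69 to 2.26, and 1 lower. On chromosome 7, the window from 16000001 to 17000000 had 8 of 27 genes higher, up to a log2 fold change of 4.15, and 0 lower. On chromosome 20, the window from 7000001 to 8000000 had 4 of 14 genes higher and 0 lower. The 3 densest windows of lower genes were on chromosomes 1 and 3. On chromosome 1, 5 of 11 genes were lower between 83000001 and 84000000, with log2 fold changes of -3.66 to -1.23, and 1 was higher. On the same chromosome 4 of 10 genes were lower between 65000001 and 66000000. On chromosome 3, 4 of 11 were lower between 106000001 and 107000000.

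The features with the largest changes among called genes of at least 5 CPM are given with every library, since no name is paired with them. ENSGALG00000030994 lies on chromosome 25 (2622590 to 2624230, plus strand, a span of 1641 bases) and overlaps 2 other features. It stood at 8.97 and 13.9 CPM in SF3B1 knockout, from 165 and 204 reads, and at 0.92 and 1.10 CPM in DLC1 knockout, from 28 and 29 reads. The part of the overlapping features in its counts was not tested. Both SF3B1 libraries were far above both DLC1 libraries. The means were 11.4 ± 3.5 CPM in SF3B1 knockout and 1.01 ± 0.129 CPM in DLC1 knockout (SD, n = 2 each; log2 fold change 3.49, SE 0.34, edgeR adjusted p = 0.000659). It stood at 0.81 and 1.24 CPM in PHF5A knockout and at 18.0 and 19.7 CPM in the controls, so the SF3B1 libraries were nearest to the controls and the PHF5A libraries took in the DLC1 level.

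ENSGALG00000040021, on chromosome 2 (32662566 to 32666093, minus strand, 3528 bases), overlaps no other feature. It stood at 9.57 and 1.77 CPM in SF3B1 knockout, from 176 and 26 reads, and at 0.788 and 0.114 CPM in DLC1 knockout, from 24 and 3 reads. The groups did not overlap, by the rule of choice, but the libraries within each differed several-fold, and guide 1 was the higher in both. The log2 fold change was 3.61 (SE 0.87, edgeR adjusted p = 0.0298), and the adjusted p was 0.0869 with DESeq2, 0.066 with limma-voom, 0.0512 among features that overlap no other, 0.138 without guide 1 of SF3B1, 0.275 without guide 1 of DLC1 and 0.518 without guide 2 of DLC1. Over all 16 alternatives it ran from 0.00241 to 0.518. The log2 fold change itself was 1.93 without guide 1 of SF3B1 and 5.57 without guide 1 of DLC1. PHF5A knockout stood at 4.47 and 7.62 CPM and the controls at 0.745 and 3.15 CPM.

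ENSGALG00000065294, on chromosome 4 (57283279 to 57491565, minus strand), spans 208 kb and overlaps 3 other features. It stood at 0.489 and 0.751 CPM in SF3B1 knockout, from only 9 and 11 reads. In DLC1 knockout it stood at 4.90 and 8.10 CPM, from 149 and 213 reads. The part of the overlapping features in these counts was not tested. Its log2 fold change was -3.40 (SE 0.43, edgeR adjusted p = 0.00184). PHF5A knockout, at 1.13 and 1.06 CPM, lay near SF3B1, and the controls, at 3.14 and 2.53 CPM, lay between both knockouts.

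ENSGALG00000002886, on chromosome 13 (9921887 to 9925070, minus strand, 3184 bases), overlaps no other feature. It stood at 1.58 and 0.409 CPM in SF3B1 knockout, from 29 and 6 reads, and at 14.8 and 4.03 CPM in DLC1 knockout, from 451 and 106 reads. The log2 fold change was -3.19 (SE 0.70, edgeR adjusted p = 0.023). The adjusted p was 0.0619 with limma-voom, 0.217 without guide 1 of SF3B1 and 0.361 without guide 2 of SF3B1, and it ran from 9.36e-08 to 0.361 over all 16 alternatives. The log2 fold change itself was -4.51 without guide 1 of SF3B1 and -1.97 without guide 1 of DLC1. PHF5A knockout stood at 1.30 and 1.28 CPM, within the range of SF3B1 knockout, and the controls at 1.90 and 10.1 CPM, far apart from each other.

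**Figure D5:**
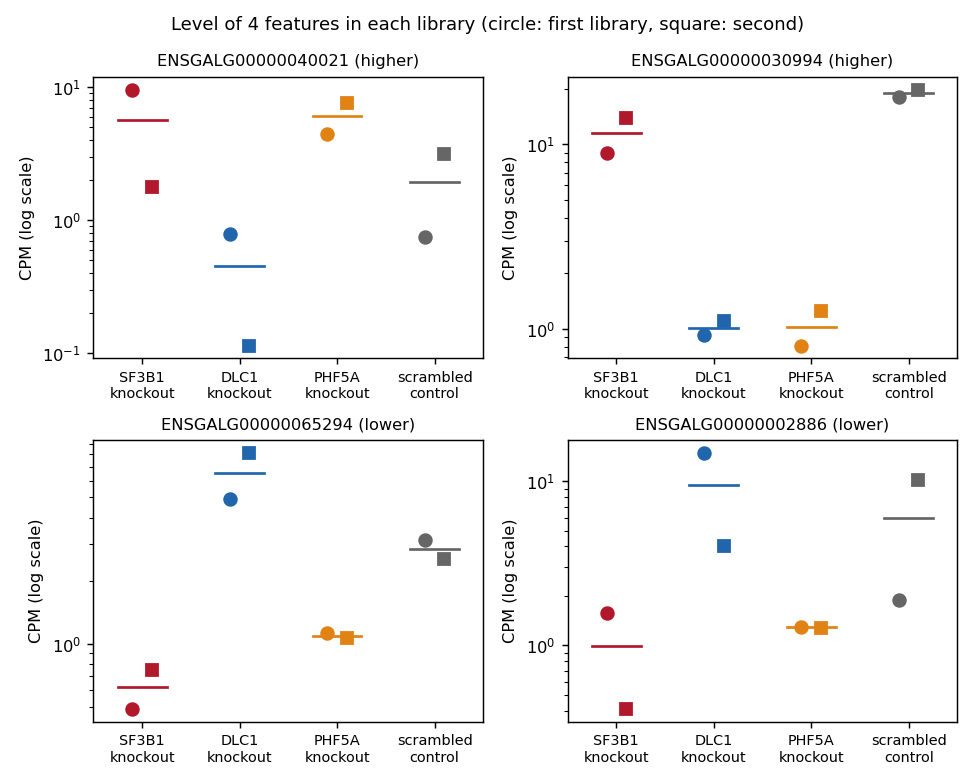
Level of 4 features in each library, in CPM on log axes, with SF3B1 knockout at the left of each panel, then DLC1 knockout, PHF5A knockout and scrambled control; circles are the first and squares the second library of a group, and lines are means. For ENSGALG00000030994 the DLC1 and PHF5A libraries lie between 0.81 and 1.24 CPM, below all SF3B1 and control libraries.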

How the data were processed

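Polyadenylated RNA of sorted cells was sequenced with a stranded kit, from about 50000 cells per treatment and with an RNA integrity number of at least 8, per the labels' protocols. The submitters' processing notes name GRCg6a as the build, STAR 2.7.11b, featureCounts 1.5.3, Trimmomatic 0.39 and FastQC 0.12.1, and no strand setting or annotation release is named. The deposited values are unnormalized read counts of 30862 Ensembl gene IDs. The deposited length equals the whole span in 100% of rows. A RefSeq table of 25635 genes matched 0 IDs, so no gene names and no gene sequences were used.

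Rows of the mitochondrial, Z and W chromosomes were left out. The 4 libraries were filtered (filterByExpr), scaled (TMM) and tested with edgeR 4.0.16 (R 4.3.3; robust quasi-likelihood F-test, 2 residual degrees of freedom), with Benjamini-Hochberg adjustment over 14427 genes at 0.05. The spread of each gene was moderated toward that of other genes, with a median of 10.4 prior degrees of freedom. Standard errors were derived from each fold change and its F value. CPM use TMM-scaled library sizes; log2 CPM add a prior count of 2. The other 4 libraries were scaled to the same reference library. DESeq2 1.42.0 and limma 3.58.1 (voom) were alternatives, and the fit was checked on simulated data. A floor of 3 counts was 0.0986 to 0.205 CPM in the 4 libraries, for counting error only. IDs given singly are those called, with groups that do not overlap and at least 5 CPM in either group, 2 of largest change in each direction. Libraries of one knockout differed beyond sampling noise (chi-square per degree of freedom 20.3 for SF3B1 and 39.5 for DLC1). Genes, groups and measures were chosen with earlier results of these data known.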

Additional observations from a re-analysis of the deposited data

Results flagged for a closer look

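The W chromosome, the female-specific sex chromosome of birds, was left out of the scaling and the tests of the main comparison. Its share of all counts was 0.235% and 0.159% in the SF3B1 libraries, 0.106% and 0.116% in the DLC1 libraries, and 0.146% and 0.00219% in the scrambled controls. Both SF3B1 libraries thus lay above both controls and above both DLC1 libraries, in rows left out of the main test. An alternative fit that kept the mitochondrial, Z and W rows tested 15263 genes and called 1949. The controls lay far apart, and the first was close to the guide 2 library of SF3B1. The PHF5A libraries held 0.0369% and 0.0973%. The Z chromosome held 2.35% and 2.35% of counts in SF3B1 knockout and 2.91% and 2.53% in DLC1 knockout. The part of these shares in the differences between the knockouts was not tested.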

How the results depend on the processing

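The 1871 calls became 2847 with no filter on low counts, 1124 when only the 9602 features that overlap no other were tested, 619 with the 6 knockout libraries and 887 with all 8 libraries in the fit. They numbered 1389 with library size as the only scaling, 2009 with DESeq2 and 1894 after thinning to equal total counts. No call of the main comparison was made in the opposite direction under any of the 16 alternatives. That outcome was close to fixed in advance and is no separate support. In all 1871 calls the groups did not overlap, and every alternative drew on the same SF3B1 and DLC1 libraries. With one library left out the number of calls ran from 918 to 2833 and the span difference from -0.293 to 0.08. The median of genes over 300 kb then ran from -0.788 to -0.575 and their lower calls from 40 to 90. Those lower calls numbered 49 with the 6 knockout libraries and 43 of 122 genes when the fit was repeated on features that overlap no other. By level, their median was -0.85 in the lowest of 4 bins and -0.523 in the third. The median of genes over 300 kb stayed negative in all 12 other settings, between -0.67 and -0.567; this measure was added after the values by span were seen. Library size as the only scaling moved the median of all genes to 0.089 and the calls to 934 higher and 455 lower. Guide numbers as a replicate block gave 2951 calls and 92 lower calls over 300 kb; the guides of different targets share only a number (deviations of same-numbered libraries correlated across genes at r = 0.231 for SF3B1 and DLC1, 0.313 for SF3B1 and PHF5A and -0.0709 for DLC1 and PHF5A), so no pairing was used. As a hint from the data, the guide 1 library held the lower mitochondrial share in each knockout, at 9.44%, 9.65% and 8.01% for SF3B1, DLC1 and PHF5A, and the guide 2 library 18.0%, 15.7% and 19.6%. With 2 libraries a group, differences of single low-count features are limited by depth, and the cause of changes between settings was not tested.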

Other observations

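The neighbours of called genes were counted along the chromosomes. For the 1049 genes higher in SF3B1 than in DLC1 knockout, the nearest tested gene that does not overlap was also higher in 143 (13.6%) and lower in 26 (2.48%). For 821 lower genes with such a neighbour, it was lower in 88 (10.7%) and higher in 32 (3.90%). Over all 14420 genes with a neighbour it was higher in 7.39% and lower in 5.30%. These shares are a description.

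By strand, there were 503 genes higher (6.93%) and 418 lower (5.76%) of 7261 on the plus strand. On the minus strand there were 546 higher (7.62%) and 404 lower (5.64%) of 7166. Genes that overlap another feature had 423 higher (8.77%) and 244 lower (5.06%) of 4825. Genes that overlap none had 626 higher (6.52%) and 578 lower (6.02%) of 9602. All these shares were near those of all tested genes, at 7.27% higher and 5.70% lower. Outside the 3 chromosomes left out, 1314 features had no read in both SF3B1 libraries and at least 1 in DLC1 knockout, and 672 had no read in both DLC1 libraries and at least 1 in SF3B1 knockout. Of these, 2 of the first kind and 0 of the second passed the filter on low counts. Both of those 2 were called lower, a direction fixed by how they were picked. The DLC1 libraries were the deeper ones, and the part of depth in these counts was not tested.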
